A study of Homo sapiens with 6 samples.

Results

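The distal AP-1 regions are the CUT&RUN peaks of full-length ZNF469 in LX-2 cells that lay more than 1 kb from every annotated transcription start and held the 7-base AP-1 site, TGACTCA or TGAGTCA, at their summit. The site had to lie whole within 50 bp of the summit base in hg38. Of the 19108 full-length regions, 13876 were distal, and 3220 of these held the site. The distal AP-1 regions were thus 16.9% of the full-length regions, and 3220 of 19162 when both deposited lists are counted. Among the full-length regions they were chosen by position and sequence alone, so neither the fold nor the −log10 p-value of a region played a part in that choice. Entry into the full-length list itself, and the place of each summit, were set by the authors' peak calling from the signal.

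CUT&RUN uses an antibody to bring a nuclease to a chromatin protein and sequences the fragments it frees, here with an antibody against ZNF469, a large zinc finger protein. LX-2 is an established, immortalized line of human hepatic stellate cells with features of the activated, matrix-producing state. The cells carried an HA-tagged ZNF469 transgene in a piggyBac vector, either full-length ZNF469 (clone3.4 in the labels) or dZF-ZNF469 (clone3.1), which lacks most of the zinc fingers, and both were induced with 1 µg/mL doxycycline for 24 h. There were 3 libraries per construct, 6 in all. Both lines were LX-2 cells grown with 2-phospho-L-ascorbic acid, stably transfected and selected as their own line, so the construct cannot be told apart from other differences between the lines. What was cloned, cells or plasmid, is not said in the labels. There is 1 deposited list per construct, whose name marks it as filtered by irreproducible discovery rate (IDR). That it pools the 3 libraries is read from this and is not stated in the sources used here. No value per library could be given, no spread between replicates could be computed, and no comparison here was tested. Peak lists hold no expression values, so the cell type was not checked against markers. The 95% Wilson intervals printed beside shares, the order-statistic intervals beside medians and the exact Poisson limits beside counts cover counting error only.

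AP-1 is a family of dimers of the basic leucine zipper proteins JUN, FOS, FOSL and ATF. The dimers bind the TPA response element, a nearly palindromic site in which a central C or G separates mirrored arms, and they are induced by growth factors, stress and matrix stiffness. In fibroblasts and stellate cells, AP-1 sites are a common feature of enhancers, the distal elements that act on promoters from afar, where they often accompany sites for TEAD, RUNX and ETS proteins.

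The windows below show what the rule selected, from the reference genome on the plus strand, with each AP-1 site in capitals. The first 4 had the highest fold among the distal AP-1 regions, the next 2 had the highest pileup of fragments at the summit, and the last 4 were all those with 3 sites. Each is named by the nearest protein-coding gene, and the summit is the 51st base.

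SERTAD2, chr2:64807504-64807604: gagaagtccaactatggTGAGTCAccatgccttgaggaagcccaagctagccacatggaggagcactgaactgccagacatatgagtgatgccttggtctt
DYSF, chr2:71498515-71498615: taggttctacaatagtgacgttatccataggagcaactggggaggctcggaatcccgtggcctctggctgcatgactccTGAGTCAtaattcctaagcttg
ZNF385C, chr17:42024866-42024966: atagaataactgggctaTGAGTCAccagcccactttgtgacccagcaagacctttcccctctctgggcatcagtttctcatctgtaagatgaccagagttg
ATP11A, chr13:112711836-112711936: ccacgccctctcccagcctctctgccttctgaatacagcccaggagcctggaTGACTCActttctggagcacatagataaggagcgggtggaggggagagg
DKK1, chr10:52319037-52319137: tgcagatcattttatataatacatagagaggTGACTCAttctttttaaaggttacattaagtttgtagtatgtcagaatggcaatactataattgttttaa
VMP1, chr17:59754620-59754720: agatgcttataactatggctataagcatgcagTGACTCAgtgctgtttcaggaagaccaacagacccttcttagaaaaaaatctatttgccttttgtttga
DMXL1, chr5:119036260-119036360: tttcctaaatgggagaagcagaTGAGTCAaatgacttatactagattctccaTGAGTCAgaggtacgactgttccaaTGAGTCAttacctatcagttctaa
XIAP, chrX:123846714-123846814: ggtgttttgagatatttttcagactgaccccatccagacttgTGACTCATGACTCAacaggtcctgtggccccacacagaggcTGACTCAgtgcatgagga
LSAMP, chr3:115790889-115790989: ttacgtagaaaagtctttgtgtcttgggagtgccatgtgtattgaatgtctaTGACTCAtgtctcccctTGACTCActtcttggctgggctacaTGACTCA
AP1S3, chr2:223699622-223699722: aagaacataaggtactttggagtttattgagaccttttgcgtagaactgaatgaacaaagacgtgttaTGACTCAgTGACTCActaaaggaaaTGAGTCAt

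The site was common at distal summits and rare beside them. It lay in 23.2% of the 13876 distal windows (22.5 to 23.9%), against 1.64% of 27752 windows of the same length placed 1000 bp to either side of the same summits (1.5 to 1.8%), a ratio of 14.2. At 500 bp to either side the share was 2.10% (1.94 to 2.27%). Of 29084635 tiles of the same length over the genome, 1.48% held the site, 15.7 times less often than distal summits. Among the 5232 proximal full-length regions, 468 held it (8.95%, 8.20 to 9.75%), so the distal share was 2.59 times the proximal one. For comparison, 4.95% of 35116 RefSeq promoters (GRCh38.p14), each 300 bp long and thus wider than a window, held it. None of the 54 dZF regions held it, a share of 0% with a Wilson upper bound of 6.64%.

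The share depended on the distance from a transcription start only close to it. It was 5.20% within 200 bp of a start (4.52 to 5.98%), 12.0% from 200 to 400 bp and 18.7% from 400 to 600 bp. On the proximal side of the 1 kb limit, from 800 to 1000 bp, it was 21.9% (17.1 to 27.6%), and on the distal side, from 1000 to 1500 bp, 22.3% (19.1 to 25.7%) and from 1500 to 2000 bp, 25.2% (21.7 to 29%). In 5 wider bins from 1 kb to beyond 100 kb it ran from 22.4% to 24.2%, with intervals that all overlapped. The limit of 1 kb therefore fell where the share had already levelled.

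**Figure D1:**
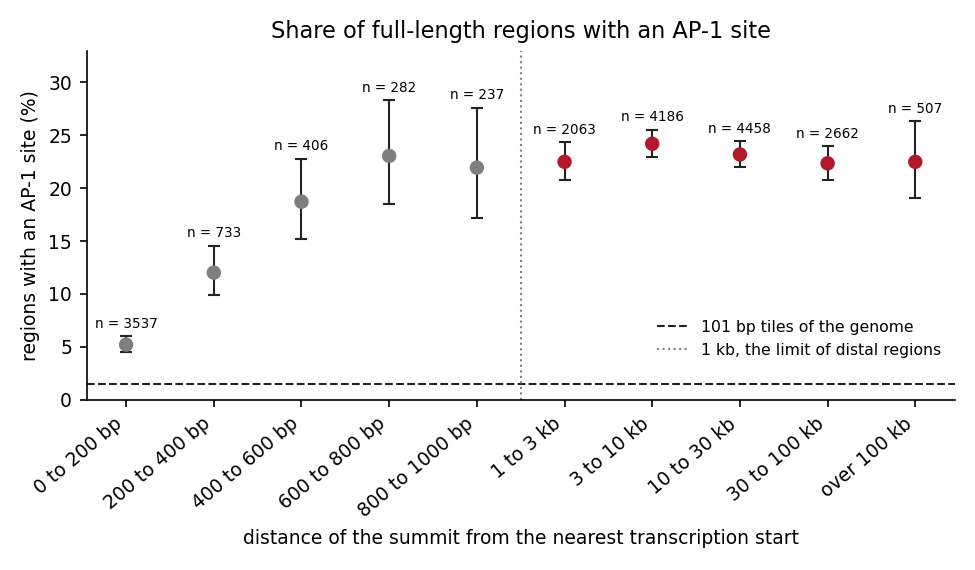
Share of full-length regions with the AP-1 site within 50 bp of the summit (y axis, percent) by the distance of the summit from the nearest GENCODE transcription start (x axis); bars are 95% Wilson intervals, grey points are proximal bins and red points distal bins. The share rises from 5.20% within 200 bp of a start to 21.9% at 800 to 1000 bp, and stays between 22.4% and 24.2% in the distal bins.

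AP-1 sites were concentrated over a broad stretch around the summits. Around all distal summits, their density was 2720 per Mb at 0 to 9 bp, 2760 per Mb at 10 to 19 bp and still 2393 per Mb at 40 to 49 bp. At 500 to 1000 bp it was 201.8 per Mb, and in the whole genome 149.7 per Mb. The density fell with distance and was first below the midpoint between its central and its distant level in the bin that starts at 90 bp. In the distal AP-1 regions, the middle base of the nearest site was a median of 22 bp from the summit (21 to 23 bp), with quartiles of 11 and 34 bp, within a window that allows at most 47 bp. The site was left of the summit in 1581 regions, right of it in 1592 and on the summit base in 47. It covered the summit base in 297 regions (9.22%). Sites with a central C on the plus strand (1602) and with a central G (1618), which are the reverse complements of each other, were about equally frequent. The windows of all distal AP-1 regions held 3406 sites, 0.737% of the 462326 sites in the genome.

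**Figure D2:**
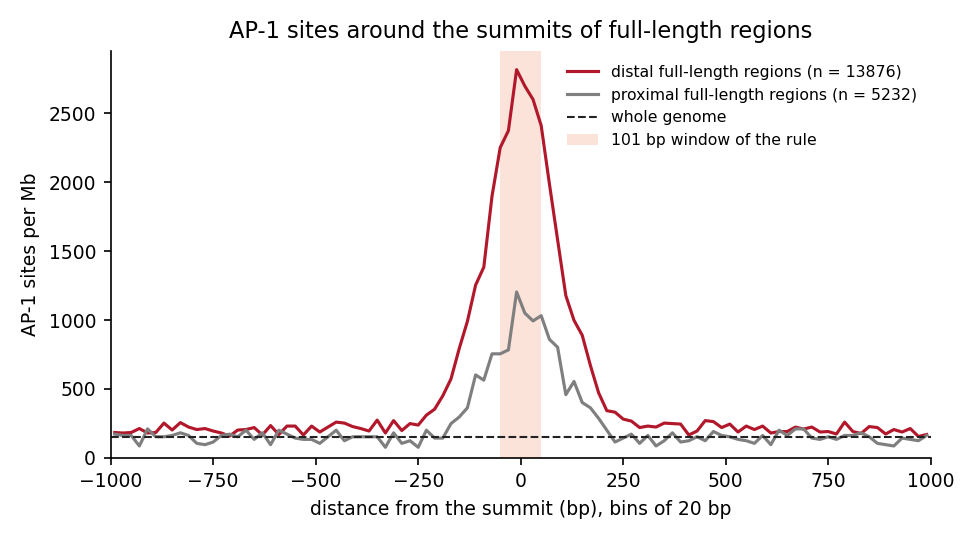
AP-1 sites per Mb (y axis) by distance from the summit in bins of 20 bp (x axis) for distal (red) and proximal (grey) full-length regions, with the whole-genome density as a dashed line and the window of the rule shaded. Distal density is highest in the bins next to the summit, at 2818 sites per Mb on the left and 2699 on the right, and is 353.1 and 342.3 sites per Mb in the bins that start 200 bp out.

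Bases next to the 7-base site differed from those around the 446082 sites of the genome outside the full-length regions. Read 5′ to 3′ along the strand on which the site is TGAGTCA, the base before was A in 34.8% of distal AP-1 regions (33.2 to 36.4%) and in 24.3% of genome sites. A T before the site was found in 9.32% (8.36 to 10.4%), against 23.1% in the genome. Mirroring this, the base after was T in 35% (33.4 to 36.7%) against 23.6%, and A in 7.92% (7.04 to 8.90%) against 25.8%. A T before or an A after the site occurred in 16.3% of distal AP-1 regions (15 to 17.6%) and in 43.3% of genome sites. The 9-base element with A or G before and T or C after occurred in 37.6% (36 to 39.3%) against 23.6%. Positions beyond these 2 bases differed less. The ratio to the genome share lay between 0.816 and 1.40 for every base at the next 2 positions to either side. Farther out, up to 10 bases from the site, ratios ran from 0.741, for A at position 5 after it, to 1.405, for C at position 9 before it.

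Taken as 9-base words, ATGAGTCAG was found in 343 distal AP-1 regions (10.7%, against 6.10% of genome sites), ATGAGTCAT in 340 (10.6% against 5.87%) and CTGAGTCAT in 377 (11.7% against 6.78%). GTGAGTCAT had the highest ratio, 1.81 (8.66% against 4.79%). At the other end, TTGAGTCAA was found in 31 regions (0.963% against 5.55%, a ratio of 0.173) and GTGAGTCAA in 61 (1.89% against 8.07%, a ratio of 0.235). All 7 words with a T before or an A after had ratios of 0.662 or less.

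Distal regions without the site held near forms of it. Of the 19 single-base changes of the site (a form and its reverse complement counted once), 14 were more than 1.5 times as frequent in the 10656 windows without the site as 1000 bp to either side. TGACTAA, which keeps 1 arm whole, was in 8.91% of these windows (8.38 to 9.46%) against 1.17% beside them, a ratio of 7.62. TGAATCA was in 10.3% (9.78 to 10.9%) against 1.82%, a ratio of 5.70, and TGAGTAA in 6.78% (6.31 to 7.27%) against 1.40%, a ratio of 4.83. In the windows of the distal AP-1 regions themselves these forms were in 3.94%, 6.15% and 4.19%. Any of the 3 forms was in 24.3% of windows without the site and in 4.32% beside them, and their density there was 2800 per Mb at 0 to 9 bp from the summit against 465.3 per Mb beyond 500 bp. These 3 forms were singled out after their values were seen. The 7-base site or any of them was in 5811 of the 13876 distal windows, 41.9% (41.1 to 42.7%).

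A window usually held a single site. There was 1 site in 3038 distal AP-1 regions (94.3%), 2 sites in 178 (5.53%) and 3 sites in 4 (0.124%). Proximal regions with a site held 2 or more in 5.34% (3.64 to 7.77%), an interval that spans the 5.65% of the distal AP-1 regions. Neighbouring sites of a window, 186 pairs, had their middles a median of 34 bp apart (quartiles 20 and 49 bp, range 7 to 93 bp). The shortest spacing is that of abutting sites, as in the window nearest XIAP printed above, where TGACTCATGACTCA joins a pair without a gap. Over the whole record rather than the window, 827 distal AP-1 regions (25.7%) held 2 or more sites. The record with most held 14 sites in 676 bp, chr1:227934653-227935328, in an intron 13.0 kb from the start of WNT9A, a secreted Wnt ligand, with 1 site at its summit, a fold of 6.57 and 12 fragments. It was named after its values were seen.

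Other motifs were searched within 100 bp of the same summits, on both strands, as fixed words for 17 families. A match is only a word in the sequence. TEAD proteins carry the YAP and TAZ coactivators to DNA, and their core GGAATG was in 644 distal AP-1 regions (20%, 18.7 to 21.4%), against 10.7% of windows 1000 bp away and 10.9% of genome tiles of the same length. Distal regions without an AP-1 site held it more often, in 25.6% (24.8 to 26.5%). RUNX proteins bind TGTGGT, which was in 17.4% (16.1 to 18.8%) against 13.5% both 1000 bp away and in the tiles, and again more often without an AP-1 site (20.9%, 20.1 to 21.6%). ETS words, CCGGAAG or CAGGAAG, were in 12.0% (10.9 to 13.2%) against 6.41% and 5.69%, and in 11.7% without an AP-1 site, with overlapping intervals. Of the 10656 regions without the site by the rule, 2134 (20%) held one between 48 and 97 bp from the summit, inside the window searched for these words. Among the other 8522, a class formed after these shares were seen, TEAD was in 26.5% (25.6 to 27.4%), RUNX in 21.5% (20.6 to 22.3%) and ETS in 11.9%. The NF-kB word GGANTTTCC was in 1.55% (1.18 to 2.04%) against 0.699% and 0.677%, and in 2.09% without an AP-1 site (1.84 to 2.38%).

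The antioxidant response element, bound by NFE2L2 with MAF proteins, was searched as TGACNNNGC. It was in 15.8% of distal AP-1 regions against 5.87% beside them, but TGACTCA followed by GC matches this word by itself. GC on either side of the site was found in 472 regions (14.7%, against 11.1% of genome sites). That count also holds GCTGACTCA, which does not match the word by itself, so the number of such self-matches is not known from it. Distal regions without an AP-1 site by the rule held the word in 10.9%, and those with no AP-1 site in the whole searched window in 9.75% (9.14 to 10.4%). E-boxes, CAGCTG or CACCTG, which basic helix-loop-helix and ZEB proteins bind, were less frequent than beside the regions, in 18.0% (16.7 to 19.4%) against 24.5%, and in 20% of tiles. Distal regions without an AP-1 site held them less often still, in 15.9% (15.2 to 16.6%). C/EBP (TTGCNNAA), NFI (TTGGCA), forkhead (TGTTTAC) and nuclear receptor (AGGTCA) words were each between 0.945 and 1.00 times their share 1000 bp away. The SP/KLF word GGGCGG was in 3.48%, near the 3.31% beside the regions, whereas proximal full-length regions held it in 43.8%. The 8-base cAMP response element TGACGTCA, which has an extra base between the arms, was in 7 distal AP-1 regions (0.217%).

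**Figure D3:**
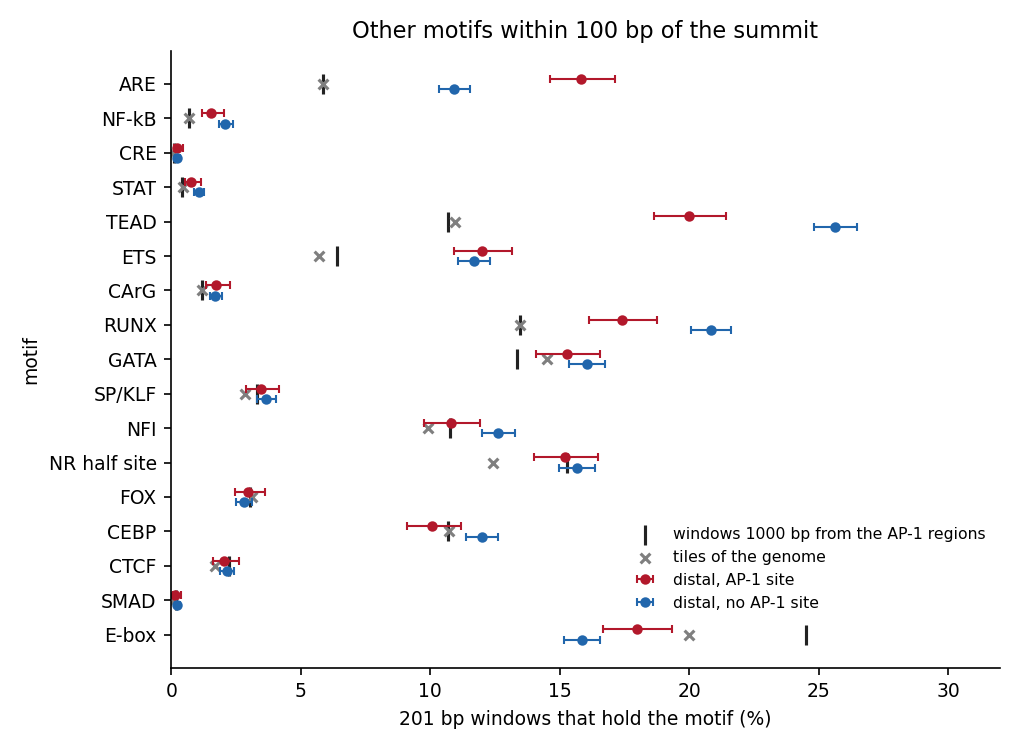
Percent of windows of 100 bp to either side of the summit that hold each of 17 motifs (x axis) for distal regions with (red) and without (blue) an AP-1 site, bars being 95% Wilson intervals; black ticks are windows 1000 bp from the AP-1 regions and grey crosses are tiles of the genome. TEAD, ETS and RUNX lie right of their ticks in both classes, TEAD and RUNX are more frequent without an AP-1 site, and E-boxes lie left of their tick.

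TEAD cores had their highest density in the bin next to the AP-1 site, by a margin within counting error, and did not thin out steadily with the gap. Counting every core on both sides, there were 89 at a gap of 0 to 9 bp (1382 per Mb, 95% Poisson limits of the count 71.5 to 109.5), 72 at 10 to 19 bp (1118 per Mb, limits 56.3 to 90.7), 164 at 20 to 39 bp (1273 per Mb), 203 at 40 to 69 bp (1051 per Mb) and 183 at 70 to 99 bp (947 per Mb), against 595 per Mb in windows 1000 bp from the summits. In addition, 54 regions (1.68%, 1.29 to 2.18%) had a TEAD core that shared bases with the AP-1 site, as in GGAATGAGTCA, against 0.802% of genome sites. The window nearest USP12, eighth by fold, has this form. ETS words had 900.6 per Mb at 0 to 9 bp and 615.9 per Mb at 70 to 99 bp, against 345.6 per Mb beyond. RUNX words changed less, with 1087 per Mb at 0 to 9 bp and 994 per Mb at 70 to 99 bp, against 753 per Mb. Their highest density was 1180 per Mb, at 10 to 19 bp. A TEAD, RUNX or ETS word was in 1362 distal AP-1 regions (42.3%), TEAD with RUNX in 97 (3.01%) and all of them in 7. These combinations were not counted beside the regions or in distal regions without an AP-1 site. They are therefore not shown to be a trait of the distal AP-1 regions, and TEAD and RUNX words taken singly were more frequent without the site.

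The deposited values of distal AP-1 regions were close to those of other distal regions. The fold, the caller's ratio of summit pileup to local background with 1 fragment added to each, had a median of 7.51 (7.47 to 7.57), quartiles at 6.52 and 8.69, and extremes of 2.39 and 19.4. Without the site the median was 7.29 (7.24 to 7.33), the quartiles were 6.21 and 8.58, and the extremes 2.09 and 49.6. The −log10 p-value of the summit had a median of 15.3 (15 to 15.5) against 14.9 (14.7 to 15). Both medians were higher with the site, by a margin far inside the quartiles of either class. In fragments, recovered from the fold and −log10 p-value on the assumption that the caller used the MACS formulas, the median summit had a pileup of 20 in both classes (95% Poisson limits of that count 12.2 to 30.9), over a local background of 1.75 against 1.82. Records with the site were narrower, with a median width of 424 bp (419 to 431 bp) against 455 bp (450 to 459 bp).

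**Figure D4:**
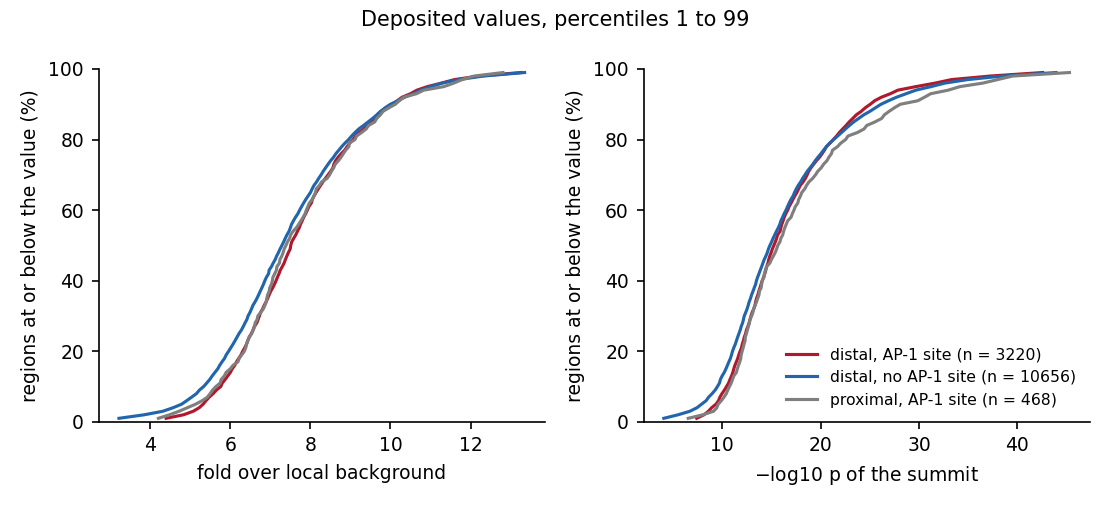
Cumulative percent of regions (y axis) by deposited fold (left) and −log10 p-value (right), percentiles 1 to 99, for distal regions with (red) and without (blue) an AP-1 site and for proximal regions with one (grey). At the lower end regions without the site reach lower values of both, with 5th percentiles of −log10 p of 7.92 against 9.38 with the site. For −log10 p the curves cross near 21.3, and at the 95th percentile regions with the site lie lower, at 29.7 against 31.2.

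The share with the site varied over the ranking. With the distal regions ranked by fold and cut into quintiles, the lowest, up to 6.04, held the site in 17.3% (15.9 to 18.8%). The other quintiles held it in 23%, 25.2%, 26.0% and, for folds from 8.98 upward, 24.5% (22.9 to 26.1%). By −log10 p, the share went from 18% (16.6 to 19.5%) in the lowest quintile to 26.9% (25.2 to 28.5%) in the middle one and 23.2% (21.6 to 24.8%) in the highest. By pileup, the lowest quintile had 20.2% and the highest 21.3% (19.8 to 22.8%), below the 25.9% of the second quintile, so the regions with most fragments did not have the largest share. Of the 100 distal regions with the highest fold 24 held the site, and of the 100 with the highest pileup 18 did (11.7 to 26.7%). By width the share fell from 26.6% in the second quintile to 18.1% (16.7 to 19.6%) in the widest, of 609 bp or more.

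Within the distal AP-1 regions, neither the place nor the number of sites went with the height of the peak. Spearman's rank correlation over the 3220 regions between the distance of the site from the summit and the fold was −0.03, and between the number of sites and the fold 0.02. These are descriptions over regions of 1 pooled list, which share its depth. Regions with the site within 10 bp of the summit had a median fold of 7.56 (7.43 to 7.75) and those with it at 41 to 47 bp a median of 7.51 (7.33 to 7.63). Just outside the rule, 564 distal regions whose nearest site was 48 to 57 bp from the summit had a median fold of 7.48 (7.35 to 7.68), and 599 members with the site 38 to 47 bp away 7.52 (7.36 to 7.65). The 182 regions with 2 or 3 sites had a median of 7.55 (7.32 to 7.89) against 7.51 (7.46 to 7.56) for those with 1. Nor did the preferred flanks go with a higher fold, since the median was 7.51 (7.41 to 7.59) with A or G before and T or C after, and 7.61 (7.47 to 7.77) with a T before or an A after. A TEAD core within 100 bp of the summit went with medians of 7.60 (7.49 to 7.80) and, without one, 7.5 (7.43 to 7.54). For the local background, the rank correlation was −0.15 with fold and 0.77 with pileup. The fold is a ratio over the background, and the background was itself recovered from the fold and the pileup.

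The distal AP-1 region with the highest fold, 19.4, was chr2:64807388-64807831, intergenic and 56.6 kb upstream of SERTAD2, with 51 fragments at the summit (38 to 67.1) over a background of 1.68. The second, chr2:71498331-71498747, had a fold of 17.3 with 52 fragments and lay in an intron of DYSF, which encodes the membrane repair protein dysferlin. At the third, chr17:42024763-42025137, the fold was 16.3. It lay in annotated exon sequence within NKIRAS2 and 3.22 kb from the start of ZNF385C. The fourth, with a fold of 16.1, lay in an intron of ATP11A, a phospholipid flippase, and the fifth, with 15.7, in an intron of PRKAG2, a subunit of the AMP-activated kinase. The remaining 5 of the first 10, with folds from 15.1 to 15.7, had their nearest coding starts at YWHAE, DAPK1, USP12, MRGPRF and CAVIN1, which encodes a coat protein of caveolae. All 10 held 1 site, at 4 to 32 bp from the summit. The distal AP-1 regions with most fragments were other regions. DKK1, a secreted Wnt inhibitor, was nearest to the highest pileup, 130 (108.6 to 154.4), at chr10:52318193-52319570, 3.83 kb from its start. VMP1, an autophagy protein of the endoplasmic reticulum, had 2 of the 5 highest, 129 and 105, in its introns. TRIO had 1 with 112, as did the neighbourhood of SGCA, at chr17:50178119-50179137 and 3.41 kb from the SGCA start. Their local backgrounds of 9.47 to 19.6 fragments, against a median of 1.75, brought their folds to between 5.47 and 11.4. Regions with 3 sites did not stand out by value. That nearest DMXL1 had a fold of 10.3, and those nearest XIAP, LSAMP and AP1S3 had 7.32, 6.35 and 6.16, with pileups of 13 to 24.

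Most distal AP-1 regions were intronic when genes of every annotated type, noncoding ones included, were counted. Protein-coding genes held 1638 of the summits (50.9%, 49.1 to 52.6%). The summit lay in an intron in 1991 (61.8%, 60.1 to 63.5%), in intergenic sequence in 1088 (33.8%) and in an exon in 141 (4.38%), and distal regions without the site gave 62.8%, 33.2% and 4.05%, with overlapping intervals. The nearest start of any transcript was a median of 11.4 kb away (quartiles 4.86 and 26.3 kb), and that of a protein-coding gene 24.7 kb away (8.55 and 81.3 kb), against 12.0 and 26.3 kb without the site. Over a wider window at the summit, median GC content was 42.9% against 41.9% without the site and 58.1% in proximal regions, and 42.5% at 1500 bp from the distal AP-1 summits. 10 or more CpG were found in 8.91% of these sequences, against 73.3% of proximal ones. Chromosomes gave shares from 16.8% of distal regions on chromosome 21 (25 of 149) to 25.4% on chromosomes 18 and 22, leaving out Y with 6 of 20. Every chromosome's interval spanned 23.2%.

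The 3220 distal AP-1 regions had 2285 protein-coding genes as their nearest by start, 11.4% of 20007. Of these genes 1695 had 1 region, 379 had 2 and 211 had 3 or more. A summit within a coding gene (1638 regions) lay in the gene with the nearest start in 93.2%. PTPRM, a receptor tyrosine phosphatase of cell contacts, had the most, 9 of its 16 distal regions, with folds from 4.36 to 9.44, 8 of them in its own introns. RAD51B, a recombination protein, had 8 of 23, all within the gene, with folds from 5.10 to 11.5 and a median local background of 4.27. CDH9, a cadherin, had 8 of 22, between −1379 and 24.2 kb from its start. PIK3C3, the catalytic subunit of a vesicle-trafficking lipid kinase, had 8 of 23, all intergenic and between −1088 and −80.0 kb from its start. FGGY (7 of 15), EDIL3 (7 of 17), TMEM132C (7 of 20), PCDH7 (7 of 22), ARHGAP26 (7 of 14) and MED13L (6 of 11) followed. EDIL3 encodes a secreted integrin ligand, PCDH7 a protocadherin and MED13L a subunit of the Mediator kinase module. These genes are 133 to 910 kb long or stand next to wide intergenic stretches, and a nearest start assigns more regions to such genes. No contact or expression value entered the assignment.

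Distal AP-1 regions stood alone in most cases. Joined at gaps of up to 20 kb, 2754 (85.5%) had no neighbour, and 466 fell in 222 groups of 2 or more. The largest group had 5, over 26.6 kb upstream of TGFBI, a matrix protein induced by TGF-beta, between 8.29 and 34.9 kb from its start, with folds from 5.02 to 8.16. These were 5 of the 7 distal regions of the gene. The second had 4 over 19 kb at FYB1, with pileups of 29 to 63. Groups of 3 included one of 1.70 kb at HIPK2, one of 6.14 kb nearest SOX9, a transcription factor of fibrogenic stellate cells, and one of 16.4 kb nearest KLF4, which were picked out after their values were seen.

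Genes of named lists were read the same way, against 23.2% for all distal regions and 11.4% for all coding genes with a distal AP-1 region nearest. Any distal full-length region was nearest to 27.1% of coding genes, so the share among the distal regions of a list is the one compared. Collagen chains had 31 distal AP-1 regions among 137 distal regions (22.6%, 16.4 to 30.3%), nearest to 20 of 44 genes (45.5%). COL8A1, a short-chain collagen, had 4 of 16 with folds from 5.52 to 13.2, COL6A3 of beaded filaments 3 of 9, and the basement membrane chain COL4A1 2 of 8. COL27A1, with 2 of 5 and a highest fold of 8.14, was the fourth by the same order. Among the other chains, COL3A1 had 2 of 12, at 4.94 and 10.5 kb from its start with pileups up to 54 and folds from 6.35 to 6.89. COL5A2 had 2 of 21, with folds from 3.23 to 6.18. COL1A1 had 1 of 3, 8.87 kb from its start where the fold was 6.01 and the pileup 42. The folds given for COL3A1, COL5A2 and COL1A1, of regions assigned by nearest start alone, were all below the median of 7.51 of the distal AP-1 regions. COL1A2 had 0 of 4. COL3A1, COL5A2, COL1A1 and COL1A2 were named for their part in the matrix of fibrosis after their values were seen. A region beside one of these genes is counted for another gene where the start of that gene is closer, so these counts do not cover all regions of a locus.

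Matrix glycoproteins and microfibrils had 21 of 97 (21.6%, 14.6 to 30.8%), at 10 of 30 genes. TGFBI had 5 of 7, THBS1 3 of 12, FN1 3 of 11 and TNC 2 of 11, THBS1, FN1 and TNC being adhesive proteins of the provisional matrix. Those of THBS1 were 280.1 to 367.4 kb from its start. Focal adhesion and actin genes had 33 of 158 (20.9%, 15.3 to 27.9%), at 19 of 40 genes, among them LPP with 4 of 14, TRIO with 4 of 20, DST with 4 of 20 and TNS1 with 3 of 7. The TGF-beta pathway had 17 of 66 (25.8%, 16.7 to 37.4%), at 9 of 20 genes. The receptor TGFBR2 had 3 of 11, LTBP1, which anchors latent TGF-beta in the matrix, 3 of 4, the corepressor TGIF1 2 of 3, and the signal transducer SMAD3 2 of 11, at 1.49 and 1.60 kb from a start.

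Genes tied to AP-1 itself had shares whose intervals spanned that of all distal regions. Of the 12 AP-1 subunit genes, FOSL2 had 2 of 6 distal regions, 116.2 and 117.4 kb from its start with folds of 4.98 and 10.8, and ATF3 had 1 of 1, while JUN had 0 of 9 (3 of 21 in all, 14.3%, 4.98 to 34.6%). Textbook AP-1 targets had 13 of 54 (24.1%, 14.6 to 37.0%), at 11 of 24 genes. EGFR had 2 of 9 and the phosphatase gene DUSP1 2 of 5, and PLAU, the urokinase gene, had 1 of 2 with the highest fold of the list, 9.29, 9.61 kb from its start, and CCND1, a cyclin, 1 of 2. YAP and TEAD pathway genes had 12 of 66 (18.2%, 10.7 to 29.2%), with 2 each at AMOTL2, FJX1, F3 and TGFB2 in the order of their highest fold. RUNX genes and partners had 3 of 24 (12.5%), 2 of 18 at RUNX1 and 1 of 1 at CBFB, with a fold of 13.0.

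Stellate cell activation markers had 9 of 57 (15.8%, 8.54 to 27.4%), at 5 of 17 genes, with 2 each at LOXL2, SMAD3, COL3A1 and CCN2. Quiescent stellate cell genes had 4 of 12 (33.3%, 13.8 to 60.9%), 1 each at RELN, PPARG, GFAP and LHX2. The 12 hepatocyte genes, among them ALB and APOA1, were nearest to 0 distal full-length regions with or without a site. All intervals of the lists with a distal region spanned 23.2%, and several lists share genes, such as COL3A1 and SMAD3.

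**Figure D5:**
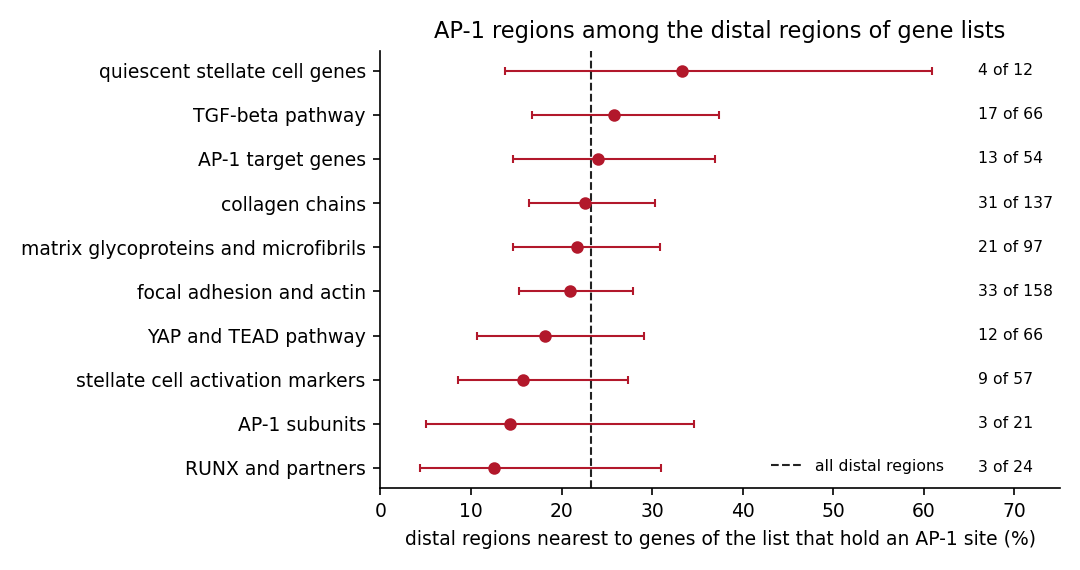
Percent of the distal full-length regions nearest to genes of each list that hold an AP-1 site (x axis), with 95% Wilson intervals and the counts at the right; the dashed line is the 23.2% of all distal regions. The points run from 12.5% to 33.3% and each interval crosses the line.

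No distal AP-1 region was found with dZF-ZNF469. Of the 3220, 0 overlapped one of the 54 dZF regions by at least 1 bp, which allows a share of up to 0.0932% by the floor of 3 counts and up to 0.119% by the Wilson bound. The overlap was 0.115% over the whole full-length list, 22 regions, of which 18 were distal regions without an AP-1 site (0.169% of 10656). The nearest approach was 7.91 kb between summits, and the median dZF summit was 997 kb from the closest distal AP-1 summit. The Wilson bound lies above the 0.115% of the whole list, so the count of 0 does not place the distal AP-1 regions below it. The dZF list comes from its own pool of libraries, and the depth of both pools is unknown here.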

How the data were processed

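CUT&RUN libraries of LX-2 cells (3 per construct) have 1 peak list per construct. That the authors pooled libraries and filtered by irreproducible discovery rate (IDR) is read from the list names. The submitters' processing notes name Bowtie2 2.3.4.3, MACS2 2.2.5, deepTools 3.5.1, bcl2fastq and R 4.2.1 with hg38; settings and any control library are not given in the sources used here. The deposited columns used were the fold (a ratio of summit to local background), the −log10 p-value, the scaled IDR score and, as another column the authors deposited, the summit offset in bp. Pooling would hide differences between libraries, and read depth per library is unknown.

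Whole-number pileups were recovered from fold and −log10 p-value by the MACS formulas, an assumption that fitted every record (largest miss 6.9e-05), after a check on simulated records. Starts came from GENCODE version 44. Motifs were exact words on both strands of hg38. Genome sites lay over 1000 bp from full-length regions. Python 3.11.15, numpy 2.4.6, pandas 2.3.3, scipy 1.17.1 and numba 0.67.0 were used. Alternatives varied the window, the start distance, the site and the list. Named were the 10 regions with the highest fold, the 5 with the highest pileup, those with 3 sites, the 10 genes nearest to most regions and up to 4 genes per list (ties by best fold). Members, motifs and lists were chosen with earlier results of these data known. No test was run.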

Additional observations from a re-analysis of the deposited data

How the results depend on the processing

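Of 79 recomputed values of 10 results, 63 stayed within the interval or the 1.5-fold limit of the value reported. The window set the count: 25 bp to either side of the summit left 1642 regions (11.8% of distal regions, median site distance 11 bp), and 100 bp gave 5354 (38.6%, 38 bp). The 9-base element left 1229 regions (8.86%), with a median −log10 p-value of 15. Among the upper 25% of records by fold there were 820 regions, 24.6% of the distal ones. Their sites lay a median of 20 bp from the summit, 19.3% had a RUNX word, 34.6% had A or G before and T or C after, and the medians were a fold of 9.71 and a −log10 p-value of 22.7, which that restriction raises by construction. Limits of 3 kb, coding starts alone, windows centred on the record and the added 8-base element moved no result beyond its interval. The count of overlaps with dZF regions was 0 also under the alternatives that could add regions (coding starts alone, the wider window, the window centred on the record and the added 8-base element). The others could only return 0. No paired analysis was possible because the 3 libraries of a construct share 1 deposited list and no result comes from a test. For the same reason no library could be left out. Pooled counts near 20 fragments per summit limit single regions: a pileup of 20 has Poisson limits of 12.2 to 30.9.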
